A study of Homo sapiens with 32 samples.

Results

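Homologous recombination copies a broken chromosome from an intact sister, and the Fanconi pathway unhooks crosslinks between DNA strands and hands the resulting break to recombination. The genes described here are 35 human genes of these linked pathways. They were chosen by name, as a list of gene symbols, with earlier results of these data known. All 35 were found, by Ensembl gene identifier, among the 60107 genes of the count table. RNA was measured by QuantSeq, a 3′ mRNA sequencing method in which each transcript is tagged once near its poly(A) end, so that a count does not scale with transcript length. The libraries came from HEK293T, a transformed human embryonic kidney line, and U2OS, a human osteosarcoma line, in a study of DNA damage and protein homeostasis. There were 32 libraries, which were handled as 8 sets of 4.

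Libraries 26 to 29 were U2OS cells given camptothecin (CPT), a poison that traps topoisomerase 1 on DNA, and libraries 30 to 33 were U2OS cells given its solvent DMSO. The U2OS dose was 400 nM for 24 h, followed by 48 h of recovery. Libraries 18 to 21 are labelled HEK293T ATM KO, whereas the methods describe HEK293T cells in which the kinase ATM was blocked with Ku-55933 at 9 micromolar for the same times. They are called the ATM inhibitor libraries here and were set against the HEK293T DMSO libraries 22 to 25. For libraries 1 to 17, 14 of 16 had a profile nearer to the line that they are not labelled as (all but libraries 1 and 17). Libraries 2, 4, 6 and 8 are labelled HEK293T CPT but resembled U2OS, and they were set against libraries 1, 3, 5 and 7, of which library 1 is labelled U2OS WT and the other 3 HEK293T DMSO. Libraries 10, 12, 14 and 16 are labelled U2OS ATM KO but resembled HEK293T, and they were set against libraries 11, 13, 15 and 17, of which library 17 is labelled HEK293T DMSO and the other 3 U2OS WT. The rule that paired these sets reads libraries 2, 4, 6 and 8 as an ATM knockout of U2OS and libraries 10, 12, 14 and 16 as HEK293T with CPT. The labels do not give that reading, so these sets are named by library number and no direction for a treatment or genotype is drawn from them. The study describes independent repeats but the labels do not tie a library to a culture, so p-values measure the spread between these libraries, which may in part be technical.

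Recombination begins when nucleases trim a break to single strands, with BRCA1 and BARD1 favouring this step. BRCA2 and PALB2 then help to build a protein filament on the single strand, RAD51C, RAD51D, XRCC2 and XRCC3 steady it, and RAD54 family motors help it invade the sister. The joined molecules are taken apart by the BLM helicase with RMI1 and RMI2. They are otherwise cut by the nuclease GEN1, or by MUS81 with its partner EME1 on the scaffold SLX4. At a crosslink, the Fanconi core complex and the E2 enzyme UBE2T attach ubiquitin to FANCD2 and FANCI, which then clamp onto DNA. Many of these genes are transcribed mainly as cells enter and pass through S phase.

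The sequences just upstream of 5 members are shown because these members had large differences in the comparisons that follow. FANCC, RMI1 and BLM were lower with CPT in U2OS, RAD51C was higher, and FANCF separated the cell lines. Each run is the 250 bases before the annotated start in RefSeq (GRCh38.p14), read 5′ to 3′ on the gene's strand, and capitals mark letters of an E2F-type motif or of a CHR motif (cell cycle genes homology region) on either strand. For RMI1, FANCC and RAD51C, which have 2 starts each, the start with more E2F-type letters is given, or the first along the chromosome where they tie.
RMI1 (chr9:83980555-83980804, plus strand): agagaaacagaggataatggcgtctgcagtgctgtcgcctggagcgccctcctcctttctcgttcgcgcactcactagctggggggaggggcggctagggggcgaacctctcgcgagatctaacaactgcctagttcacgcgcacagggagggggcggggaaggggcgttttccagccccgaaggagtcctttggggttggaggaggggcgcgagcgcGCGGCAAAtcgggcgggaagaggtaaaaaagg
FANCC (chr9:95317710-95317959, minus strand): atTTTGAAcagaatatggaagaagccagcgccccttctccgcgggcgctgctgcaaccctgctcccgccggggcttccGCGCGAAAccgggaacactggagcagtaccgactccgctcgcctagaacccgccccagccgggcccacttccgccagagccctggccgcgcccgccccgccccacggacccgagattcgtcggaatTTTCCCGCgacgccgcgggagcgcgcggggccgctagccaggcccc
BLM (chr15:90717096-90717345, plus strand): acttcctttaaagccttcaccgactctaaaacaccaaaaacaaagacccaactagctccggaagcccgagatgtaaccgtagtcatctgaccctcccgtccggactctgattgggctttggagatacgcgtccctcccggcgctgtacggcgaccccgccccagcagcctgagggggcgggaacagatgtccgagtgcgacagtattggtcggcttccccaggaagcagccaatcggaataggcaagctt
RAD51C (chr17:58692323-58692572, plus strand): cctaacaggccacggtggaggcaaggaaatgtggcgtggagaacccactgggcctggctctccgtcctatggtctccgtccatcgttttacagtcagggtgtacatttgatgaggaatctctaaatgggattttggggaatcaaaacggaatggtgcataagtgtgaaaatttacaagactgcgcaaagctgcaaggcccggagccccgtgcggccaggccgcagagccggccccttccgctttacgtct
FANCF (chr11:22625824-22626073, minus strand): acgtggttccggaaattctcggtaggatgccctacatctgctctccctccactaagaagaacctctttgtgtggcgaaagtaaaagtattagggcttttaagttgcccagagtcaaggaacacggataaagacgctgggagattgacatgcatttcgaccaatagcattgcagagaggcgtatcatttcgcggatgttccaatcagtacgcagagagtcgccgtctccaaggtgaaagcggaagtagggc

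RefSeq windows of 300 bases, from 250 before to 50 after the start, were matched for 30 of the 35 members. DNA2, FANCI, RAD54B, RMI2 and WRN had no entry. The E2F-type letters searched were TTTCCCGC, TTTCGCGC, TTTGCCGC and TTTGGCGC on both strands, none of which contains the CHR letters TTTGAA or TTCGAA. At least 1 window held an E2F-type match for 7 of the 30 members (23.3%), namely EXO1, FANCA, FANCC, FANCD2, GEN1, RMI1 and XRCC2, against 3.99% of 27305 genes. CHR letters were found for 4 of the 30 members (13.3%; BRIP1, FANCC, GEN1 and UBE2T), against 19.5% of the genes, and CCAAT on either strand for 14 (46.7%), against 39.7%. Among the 17 matched members that were lower with CPT in U2OS, 5 held the E2F-type letters, and among the 13 others 2 did. The median number of CG dinucleotides was 27.5 over the 40 windows of members and 14 over all 35116 windows. These are matches of letters in a window, and binding was not measured.

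Counts assigned to genes ran from 1232674 to 6362433 per library, so that 3 counts, taken as the floor of detection, equal 0.4715 to 2.434 CPM (counts divided by the library's summed gene counts and scaled to 1e6). Summed CPM of 9 U2OS-side marker genes was 4414 to 4904 in the U2OS CPT libraries and 2378 to 2770 with DMSO, against 62.3 to 108 in the ATM inhibitor libraries and 78.2 to 109.5 in HEK293T DMSO. Of 6 HEK293T-side markers, NEFM, INA, LIN28B and PAX2 were lower in U2OS DMSO than in HEK293T DMSO and SOX2 and NEFL were higher (log2 fold changes 3.48 and 1.47). Their summed level was therefore higher in U2OS DMSO, at 358 to 419 CPM against 234 to 327 CPM, while NEFM had a mean of 0.086 CPM against 92.6 CPM. CPM values in the text carry no further scaling, whereas fold changes and their standard errors (SE) come from edgeR's quasi-likelihood test with TMM scaling, on the log2 scale, with p-values adjusted over all genes tested. In U2OS the TMM scaling lay 0.17 log2 units above plain CPM for CPT against DMSO, so that a fold read from CPM is lower than the fitted one by that amount.

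In U2OS cells given CPT, 20 of the 35 genes were lower than with DMSO and 1, RAD51C, was higher, at an adjusted p under 0.05. Among all 19080 genes tested, 15.3% were lower and 16.6% higher by that rule. Summed over the 35 genes, the level was 1092 ± 47.3 CPM (SD, n = 4) with CPT and 1628 ± 119 CPM with DMSO, and all CPT libraries lay below all DMSO libraries. The median log2 fold change of the 35 genes was -0.49, a 1.4-fold lower level, and that of all genes tested was 0.01. In these bulk libraries, fewer cells that express a gene and less RNA of it per cell cannot be told apart. With the study's further requirement of an absolute log2 fold change over 1, RMI2 and FANCC remained lower and none was higher, where 5.5% and 7.97% of all genes passed. For 22 of the 35 genes all CPT libraries lay below all DMSO libraries, and for RAD51C all lay above, beside 20.1% and 11.2% of all genes.

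**Figure D1:**
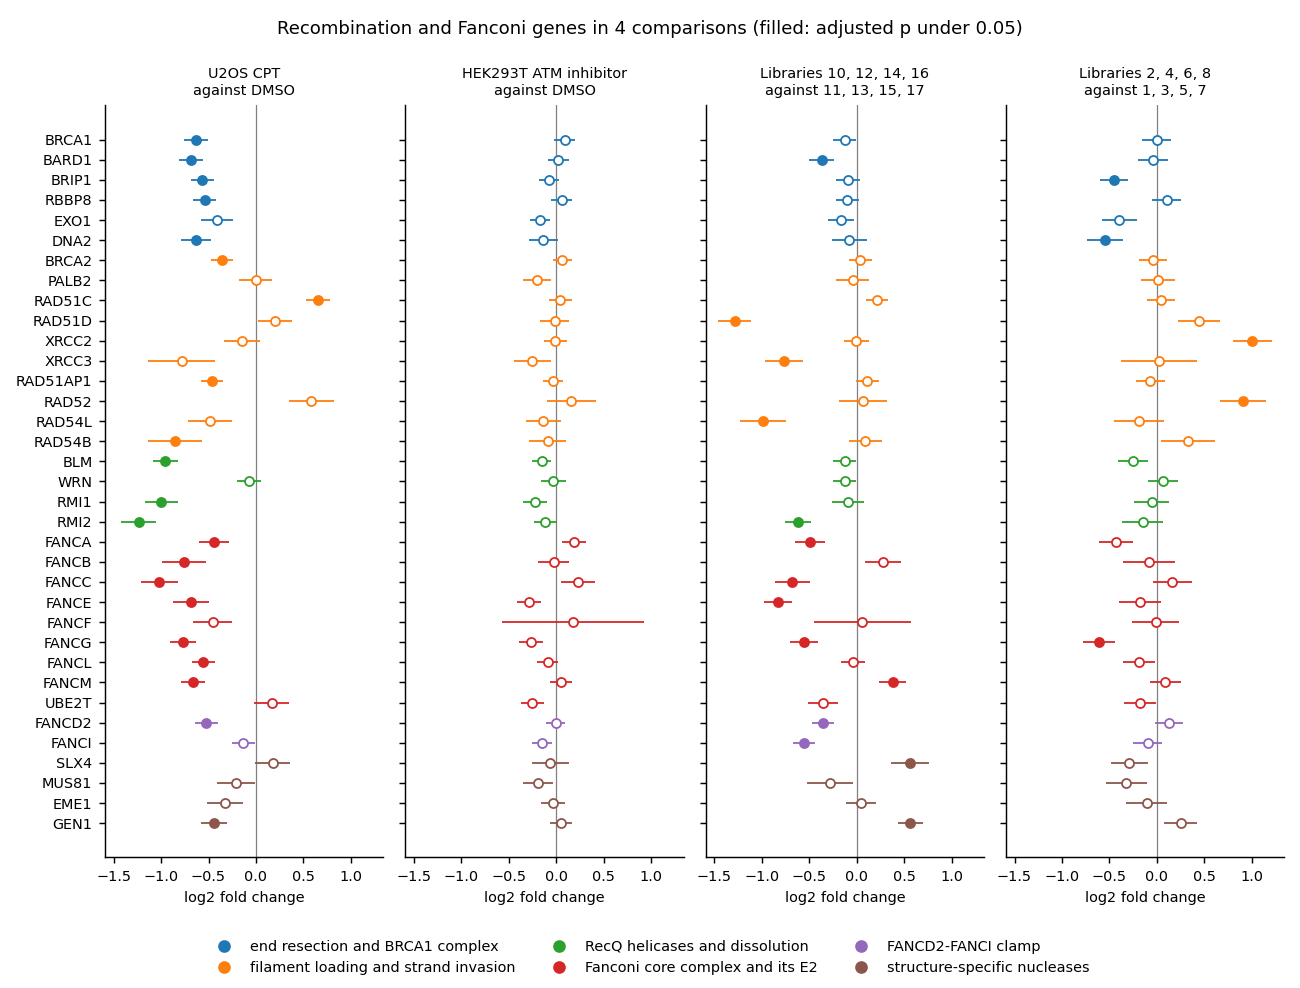
Log2 fold change (x axis, point) with its standard error (bar) for each of the 35 genes (y axis, coloured by role) in 4 comparisons of 4 against 4 libraries; filled points have an adjusted p under 0.05. In U2OS with CPT 20 points are filled left of 0 and 1 right of it, with the ATM inhibitor none is filled, and in the sets of libraries 10 to 17 and 1 to 8 there are 14 and 5 filled points.

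Of the 4 genes of the RecQ helicases and dissolution, 3 were lower, among them RMI2, which had the largest difference of the 35. BLM, the RecQ helicase at its centre, had 22.1, 20.8, 24.6 and 28.7 CPM in the CPT libraries and 55.9, 56.1, 48.9 and 49.5 CPM in the DMSO libraries (log2 fold change -0.96 ± 0.13 SE, adjusted p = 1.0e-06). The scaffold RMI1 had 13.2, 14.9, 15.6 and 17.2 CPM with CPT and 46, 40.3, 30.8 and 22.4 CPM with DMSO (log2 fold change -1.0 ± 0.17 SE, adjusted p = 2.9e-05). RMI2, its small partner, had 8.83, 9.3, 8.31 and 13.1 CPM with CPT and 36.4, 23.7, 24.6 and 21.4 CPM with DMSO (log2 fold change -1.24 ± 0.18 SE, adjusted p = 3.2e-06). The CPT and DMSO libraries did not overlap for any of these 3 genes, and the DMSO libraries spread most for RMI1, in which the lowest of them was 22.4 CPM. WRN, the helicase mutated in Werner syndrome, had 44.1 ± 5.89 CPM with CPT and 52.7 ± 6.44 CPM with DMSO and did not pass the test (log2 fold change -0.07 ± 0.13 SE, adjusted p = 0.717). TOP3A, the topoisomerase that works with BLM and the RMI proteins and is not among the 35, fell by 1.46-fold in the same test (log2 fold change -0.54 ± 0.17 SE, adjusted p = 0.012). A gene on the opposite strand overlaps the 3′ end of RMI2 and had 93 counts over all 32 libraries.

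Of the 9 genes of the Fanconi core complex and its E2, 7 were lower (FANCA, FANCB, FANCC, FANCE, FANCG, FANCL and FANCM). FANCC, which sits with FANCE and FANCF in the core complex, had 10.9, 5.89, 7.62 and 8.42 CPM with CPT and 21.3, 21.7, 16.7 and 16.3 CPM with DMSO (log2 fold change -1.02 ± 0.19 SE, adjusted p = 1.0e-04). FANCG, which binds FANCA, had 25.9, 21.1, 25.6 and 24 CPM with CPT and 55.6, 53.3, 40.7 and 38 CPM with DMSO (log2 fold change -0.77 ± 0.14 SE, adjusted p = 4.9e-05). For both genes every CPT library lay below every DMSO library. FANCB, in the catalytic module with the ubiquitin ligase FANCL, had 4.41, 6.82, 5.89 and 4.68 CPM against 10.5, 10.3, 12.6 and 8.41 CPM (log2 fold change -0.76 ± 0.23 SE, adjusted p = 0.011). FANCE, which contacts FANCD2, had 10.6, 8.38, 9.7 and 7.17 CPM against 20.1, 16.5, 14.1 and 14.9 CPM (log2 fold change -0.69 ± 0.19 SE, adjusted p = 0.005). FANCM, the DNA translocase that anchors the complex, had 28.8, 34.1, 38.1 and 38.7 CPM against 69.5, 59.9, 59.2 and 60.3 CPM (log2 fold change -0.66 ± 0.13 SE, adjusted p = 1.1e-04). FANCB, FANCE and FANCM did not overlap between CPT and DMSO either. FANCL (-0.56) and FANCA (-0.45) had smaller log2 fold changes, at adjusted p of 6.4e-04 and 0.031.

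FANCF of the core complex and UBE2T, its E2, did not pass. FANCF had 7.06, 8.69, 7.62 and 6.55 CPM with CPT and 14.2, 9.63, 10.6 and 11.8 CPM with DMSO, which did not overlap, at -0.46 and an adjusted p of 0.093. UBE2T had 28.8, 28.2, 23.6 and 29.6 CPM with CPT and 45.1, 31.3, 19.3 and 17.8 CPM with DMSO (log2 fold change 0.17 ± 0.19 SE, adjusted p = 0.545). The DMSO libraries of UBE2T spanned the whole CPT range, with the lowest and the highest value of all 8 among them. Of the clamp, FANCD2 was lower, with 44.4, 53, 54.4 and 49.3 CPM against 92.9, 83.3, 74.1 and 76.2 CPM and no overlap (log2 fold change -0.52 ± 0.12 SE, adjusted p = 8.3e-04). Its partner FANCI had 63.6, 73.5, 72.7 and 73.3 CPM against 104, 90.2, 89.7 and 68.2 CPM, where a DMSO library lay among the CPT libraries (log2 fold change -0.13 ± 0.12 SE, adjusted p = 0.436). Reads of FANCI and of POLG, which ends opposite it, cannot be told apart if counting ignored the strand, and the same holds for FANCA and ZNF276 and for FANCL and VRK2.

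Of the 6 genes of end resection and the BRCA1 complex, 5 were lower. BRCA1 had 78.9, 74.4, 72.4 and 74.9 CPM with CPT and 125, 109, 142 and 145 CPM with DMSO (log2 fold change -0.63 ± 0.12 SE, adjusted p = 1.5e-04). Its ubiquitin ligase partner BARD1 had 35, 41.9, 39.8 and 38.7 CPM with CPT and 82.7, 71.9, 61.8 and 65.8 CPM with DMSO (log2 fold change -0.68 ± 0.12 SE, adjusted p = 4.9e-05). The groups did not overlap for either. The helicase BRIP1 (-0.56), the resection factor RBBP8 (-0.54) and the nuclease-helicase DNA2 (-0.63) were lower as well, at adjusted p of 3.8e-04, 8.0e-04 and 0.0021. EXO1, the other long-range nuclease, had 15.9 ± 2.48 CPM against 24 ± 5.46 CPM (-0.41, adjusted p = 0.059).

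The 10 genes of filament loading and strand invasion went in both directions, with 3 lower, 1 higher and 6 that did not pass. RAD51C, which belongs to both complexes that steady the filament, had 92.7, 112, 79.99 and 87.7 CPM with CPT and 75.6, 61.9, 68 and 62.5 CPM with DMSO (log2 fold change 0.65 ± 0.12 SE, adjusted p = 1.1e-04). Its lowest CPT library lay above its highest DMSO library. BRCA2, which loads the filament, had 79.7, 101, 105 and 105 CPM against 148, 137, 153 and 129 CPM, without overlap (log2 fold change -0.36 ± 0.12 SE, adjusted p = 0.017). RAD54B had 3.24, 2.17, 4.16 and 2.81 CPM against 7.72, 6.88, 4.98 and 5.77 CPM (log2 fold change -0.86 ± 0.29 SE, adjusted p = 0.021), and a gene inside it on the same strand, FSBP, had 15 counts in all. RAD51AP1, which stimulates strand pairing, was lower by 1.38-fold (adjusted p = 0.0029). XRCC3 (-0.78 ± 0.35 SE), RAD52 (0.58 ± 0.24 SE) and RAD54L (-0.49 ± 0.23 SE) had log2 fold changes of some size but adjusted p of 0.092, 0.061 and 0.107. PALB2 (-0.004 ± 0.18 SE), RAD51D (0.20 ± 0.18 SE) and XRCC2 (-0.15 ± 0.19 SE) lay closer to 0.

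**Figure D2:**
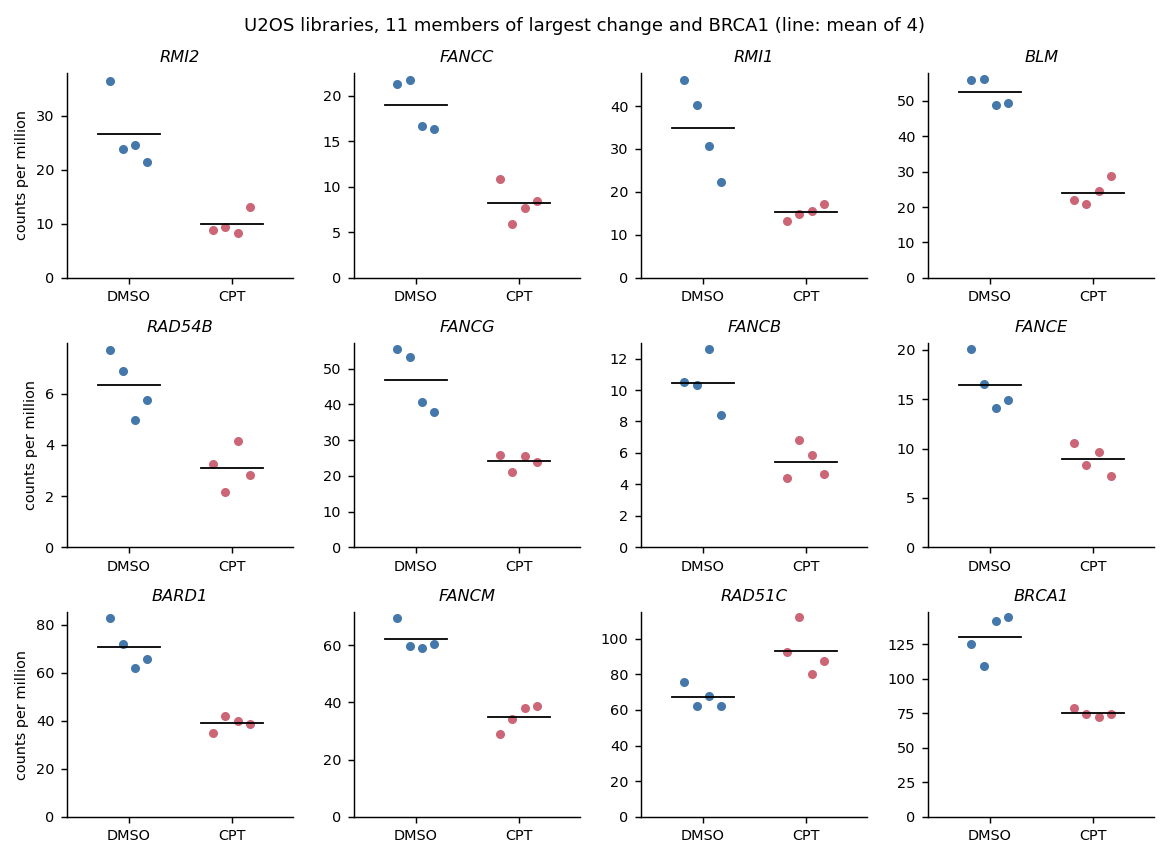
CPM (y axis, from 0) in the 4 DMSO and 4 CPT libraries of U2OS (x axis) for the 11 genes with the largest called differences and for BRCA1; points are libraries and lines are means. For 11 of the 12 genes every CPT point lies below every DMSO point, and for RAD51C every CPT point lies above.

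Among the 4 genes of the nucleases and their scaffold, GEN1, a resolvase of Holliday junctions, was lower with CPT, at 27.4, 32.9, 28.1 and 34.9 CPM against 46, 44.4, 51 and 47.1 CPM (log2 fold change -0.45 ± 0.13 SE, adjusted p = 0.011). Its 3′ end overlaps that of SMC6 on the other strand, which had 27423 counts over all libraries. The scaffold SLX4 (0.17 ± 0.18 SE), MUS81 (-0.21 ± 0.20 SE) and its partner EME1 (-0.32 ± 0.19 SE) did not pass. RAD54B, FANCA, BRCA2 and FANCB were the calls that were lost when a single library was left out. FANCA was lost without library 26, 27, 28, 31 or 33, RAD54B without 27, 29 or 30, BRCA2 without 26 or 32, and FANCB without 32. By DESeq2, RAD54B and FANCA did not pass either (adjusted p = 0.0801 and 0.07305). Without TMM, with library size alone as the scale, the median of all genes moved by -0.17 log2 units, 25 of the 35 genes were lower and 1 was higher, and over all genes 4253 were lower and 2283 higher in place of 2915 and 3176.

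Other genes of repair in the same U2OS comparison are given for context. Of 45 tested among 48 further recombination and crosslink genes, 7 were lower and 3 higher (median -0.15). The largest were PARPBP, an inhibitor of recombination (-1.12, adjusted p = 4.9e-06), USP1, the enzyme that removes ubiquitin from FANCD2 (-0.86, adjusted p = 1.2e-07), and RPA3, a subunit of the single-strand binding protein RPA (-0.74, adjusted p = 6.4e-06). MRE11, the nuclease that starts resection, was lower (-0.36, adjusted p = 0.015), whereas its partner NBN (-0.27, adjusted p = 0.12) and RPA1 (0.02, adjusted p = 0.953) did not pass. Of 17 end joining genes, 4 were lower and 3 higher, and XRCC6, the Ku70 subunit, was among the lower ones (-0.44, adjusted p = 0.01).

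Genes of the cell cycle moved in the same libraries. Of 39 replication genes, 30 were lower and none higher (median -0.64), and their summed level was 2266 ± 68.5 CPM with CPT and 3618 ± 196 CPM with DMSO. Of 28 mitosis genes, 27 were lower and none higher (median -0.92), at 4041 ± 363 CPM and 8152 ± 243 CPM. Of 23 tested among 24 p53 targets, 22 were higher and none lower (median 1.44), at 2787 ± 47.8 CPM and 987 ± 78.9 CPM. CDKN1A, the p21 inhibitor of cyclin-dependent kinases, had 434, 393, 388 and 390.2 CPM with CPT and 105, 91.5, 91.1 and 96.4 CPM with DMSO. MKI67, a marker of cycling cells, had a log2 fold change of -1.14 and the mitotic cyclin CCNB1 of -0.88, while PCNA, the replication clamp, had 0.003 ± 0.13 SE. The part of the cell cycle in the lower levels of the 35 genes was not tested.

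**Figure D3:**
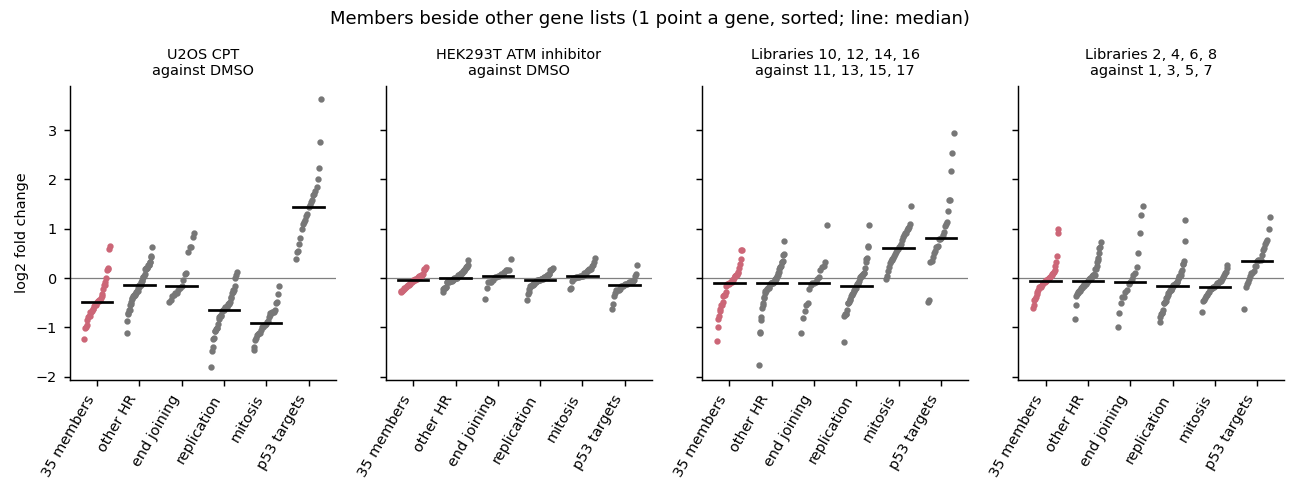
Log2 fold change (y axis) of the 35 members and of 5 other gene lists (x axis) in 4 comparisons; each point is a gene, sorted within its list, and each line is the list's median. In U2OS with CPT the members' median of -0.49 lies between those of the other recombination genes (-0.15) and the replication genes (-0.64), and p53 targets lie above 0.

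With the ATM inhibitor in HEK293T, none of the 35 genes passed an adjusted p of 0.05 by edgeR's quasi-likelihood test, and none did by edgeR's likelihood ratio test or by DESeq2. Of all 18413 genes, 0.00543% were lower and 0% higher. At an unadjusted p under 0.05 there were 3 of the 35, beside 5.53% of all genes, and the smallest adjusted p was 0.878. FANCE had 32.8, 32.2, 27.5 and 32.2 CPM with the inhibitor and 38.9, 44.3, 37.8 and 38.2 CPM with DMSO (-0.29 ± 0.12 SE). UBE2T had 58.6, 43.7, 64.8 and 69.2 CPM with the inhibitor and 75.1, 72, 81.9 and 63.1 CPM with DMSO (-0.25 ± 0.12 SE, adjusted p = 0.887). FANCE did not overlap between the groups, and for UBE2T 2 inhibitor libraries lay within the DMSO range. For 3 of the 35 genes all inhibitor libraries lay below all DMSO libraries and for 0 all lay above, beside 1.96% and 1.12% of all genes. Log2 fold changes of the 35 genes ran from -0.29 to 0.23 with a median of -0.04. The summed level was 2094 ± 71.2 CPM with the inhibitor and 2248 ± 74.2 CPM with DMSO. BRCA1 (0.09 ± 0.11 SE), BRCA2 (0.06 ± 0.10 SE), FANCD2 (-0.01 ± 0.10 SE) and FANCI (-0.15 ± 0.10 SE) had standard errors between 0.10 and 0.11. None of the replication, mitosis or p53 target genes passed edgeR's quasi-likelihood test in this comparison either, with 4 of 39, 4 of 28 and 3 of 24 at an unadjusted p under 0.05.

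ATM, whose product is the target in these libraries, was measured in every library. It had 54.5, 55.8, 74.1 and 64.4 CPM with the inhibitor and 72.4, 82, 58.9 and 57.8 CPM with HEK293T DMSO (adjusted p = 0.977), where a kinase inhibitor need not lower the transcript. Libraries 10, 12, 14 and 16, labelled ATM KO, had 39.8, 39.5, 32 and 28.8 CPM, and libraries 11, 13, 15 and 17 had 26.6, 21.1, 34.2 and 36.4 CPM (log2 fold change 0.22 ± 0.16 SE, adjusted p = 0.305). Libraries 2, 4, 6 and 8 had 61.6, 52.9, 54.7 and 34.2 CPM and libraries 1, 3, 5 and 7 had 57.2, 68.4, 53.4 and 63.5 CPM (log2 fold change -0.31 ± 0.17 SE, adjusted p = 0.255). Both pairs of sets overlapped. A tag at the 3′ end does not check a knockout made elsewhere in the gene, and its site is not given in the sources used here.

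Libraries 10, 12, 14 and 16 differed from libraries 11, 13, 15 and 17 in 14 of the 35 genes, with 11 lower and 3 higher. Of all 19464 genes tested, 17.3% were lower and 17.6% higher. The median of the 35 genes was -0.10 against 0.04 for all genes, and their summed level was 1874 ± 74.8 CPM and 2038 ± 135 CPM. For 9 genes the first set lay wholly below the second and for 2 wholly above, beside 14.6% and 16.4% of all genes. RAD51D, which acts beside RAD51C, had 8.88, 9.57, 8.32 and 11 CPM against 26.9, 21, 23.3 and 20.4 CPM (log2 fold change -1.28 ± 0.17 SE, adjusted p = 4.9e-06). No library of the first set reached the lowest of the second. The readthrough gene that shares its strand, RAD51L3-RFFL, had 0 counts.

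RAD54L, the RAD54 motor, had 7.35, 10.5, 7.68 and 6.44 CPM against 17.4, 7.62, 18.9 and 18.4 CPM (log2 fold change -0.99 ± 0.24 SE, adjusted p = 0.0028), with library 13 inside the range of the first set. FANCE had 15.3, 19.8, 14.7 and 17.1 CPM against 29.8, 29.4, 27.3 and 30.1 CPM (log2 fold change -0.83 ± 0.15 SE, adjusted p = 1.7e-04). XRCC3 had 9.49, 6.79, 9.92 and 11.3 CPM against 16.2, 17.8, 16.9 and 12.6 CPM (log2 fold change -0.76 ± 0.20 SE, adjusted p = 0.0042). FANCE and XRCC3 did not overlap between the sets. On the opposite strand, KLC1 overlaps the 3′ end of XRCC3 and LRRC41 that of RAD54L, with 5511 and 5209 counts over all libraries. Reads of each pair cannot be told apart if counting ignored the strand. FANCC had 9.19, 8.95, 7.68 and 12.3 CPM against 15.2, 13.5, 18.2 and 14.6 CPM, also without overlap (log2 fold change -0.68 ± 0.19 SE, adjusted p = 0.0077). BARD1, RMI2, FANCA, FANCG, FANCD2 and FANCI were lower by -0.37, -0.62, -0.49, -0.55, -0.35 and -0.56 on the log2 scale. The adjusted p was 0.021 for FANCD2 and 6.7e-04 for FANCI. FANCD2 no longer passed without library 12, 13 or 14, FANCA without 10, 11 or 14, and BARD1 without 10, 11, 14 or 15. BARD1 was also lost by DESeq2, with RLE factors, with edgeR's filterByExpr filter and with library size alone as the scale.

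The 3 higher genes were FANCM, SLX4 and GEN1. GEN1 had 36.7, 40.4, 37.7 and 39.9 CPM against 22.6, 23.5, 28.4 and 28.8 CPM, without overlap (log2 fold change 0.57 ± 0.14 SE, adjusted p = 0.0023). SLX4 had 9.8, 12.3, 11.2 and 13.7 CPM against 9.1, 6.6, 6.67 and 9.31 CPM (log2 fold change 0.56 ± 0.20 SE, adjusted p = 0.031), and FANCM 46.9, 58.6, 47 and 44 CPM against 34.9, 30.1, 44.7 and 39.2 CPM (log2 fold change 0.38 ± 0.14 SE, adjusted p = 0.036). FANCM was lost without library 10, 11, 12, 13 or 14, and SLX4 without 12, 13, 15 or 16, so that 1 higher gene was left without library 12 or 13. BRCA1 (-0.13 ± 0.12 SE), BRCA2 (0.04 ± 0.12 SE) and UBE2T (-0.35 ± 0.16 SE) did not pass. Without library 17, which leaves a side labelled U2OS ATM KO throughout against one labelled U2OS WT throughout, 11 genes were lower and 3 higher. With the sides set by the deposited labels, in which library 1 joins the U2OS WT side, 1 was lower and none higher.

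In the same sets, 23 of 28 mitosis genes were higher and none lower (median 0.61), 17 of 24 p53 targets were higher and 2 lower (median 0.80), and 13 of 39 replication genes were lower and 6 higher (median -0.15). Of 45 further recombination genes 10 were lower and 3 higher, NBN among the lower ones (-0.55, adjusted p = 6.7e-04), and of 17 end joining genes 4 were lower and 1 higher. CDKN1A had 121, 149, 125 and 228 CPM against 29.6, 19.5, 56.9 and 32.4 CPM. The U2OS-side markers summed to 157 to 242 CPM against 59.96 to 72 CPM. Of 8 of these markers tested, 5 were higher, ANXA1 had a mean of 32.2 CPM against 4.46 CPM, and TGFBI, S100A6 and CRYAB had means under 0.5 CPM in both sets. The part of these differences in the members' values was not tested.

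Libraries 2, 4, 6 and 8 differed from libraries 1, 3, 5 and 7 in 5 of the 35 genes, with 3 lower and 2 higher, where 6.56% of 18591 genes were lower and 6.43% higher. The median of the 35 genes was -0.06, and their summed level was 1414 ± 118 CPM and 1422 ± 175 CPM. XRCC2, which acts with RAD51D, had 19.5, 29.8, 30.2 and 21.1 CPM against 12, 13.8, 12.3 and 12 CPM (log2 fold change 1.0 ± 0.21 SE, adjusted p = 3.3e-04). RAD52, which anneals single strands, had 11.4, 16.8, 21.2 and 13.4 CPM against 5.65, 9.52, 10.9 and 6.82 CPM (log2 fold change 0.91 ± 0.24 SE, adjusted p = 0.0063). Both sets of values stood apart for XRCC2 and RAD52. FANCG had 25.1, 25, 30.7 and 33.9 CPM against 32.5, 39.8, 42.4 and 58.1 CPM (log2 fold change -0.61 ± 0.17 SE, adjusted p = 0.0086). DNA2 had 23.5, 22.1, 18.6 and 15.8 CPM against 28.9, 26, 26 and 29.2 CPM (log2 fold change -0.54 ± 0.19 SE, adjusted p = 0.045). BRIP1 had 79.5, 64.5, 91.6 and 74.9 CPM against 102, 96, 98.8 and 119 CPM (log2 fold change -0.45 ± 0.15 SE, adjusted p = 0.034).

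For FANCG the 2 sets overlapped in library 1 and library 8, and for DNA2 and BRIP1 they did not. Wholly lower were 3 of the 35 genes (BRIP1, DNA2 and FANCA) and wholly higher 2, beside 6.02% and 7.61% of all genes. BRCA1 (-0.004 ± 0.15 SE), BRCA2 (-0.04 ± 0.15 SE), FANCD2 (0.12 ± 0.15 SE), FANCI (-0.10 ± 0.16 SE) and UBE2T (-0.18 ± 0.17 SE) did not pass. None of the 3 lower genes passed without library 7. DNA2 was also lost without library 1, 3, 5, 6 or 8, by DESeq2, with edgeR's filterByExpr filter and with library size alone. BRIP1 was lost without library 1 or 4 and with library size alone. Library 1 differs in label from its set. XRCC2 passed without any 1 of the 8 libraries, and RAD52 did not without library 6 or 7. Of 39 replication genes 8 were lower and 2 higher, PCNA among the lower ones (-0.70, adjusted p = 3.6e-04), of 28 mitosis genes 2 were lower, and of 23 p53 targets 7 were higher and 1 lower. XRCC6 was lower too (-0.70, adjusted p = 4.9e-04). Of 45 further recombination genes 2 were lower and 3 higher, and of 17 end joining genes 1 was lower and 3 were higher.

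The U2OS response to CPT was tested against these 2 contrasts for each gene. Against libraries 10 to 17, 10 of the 35 genes had a more negative log2 fold change in U2OS and 1 a more positive one, where 10.5% and 9.86% of 22363 genes did. GEN1 and FANCM were lower in U2OS and higher in libraries 10, 12, 14 and 16, with differences of -1.01 ± 0.19 SE (adjusted p = 9.1e-05) and -1.04 ± 0.19 SE (adjusted p = 3.8e-05). BLM (-0.83 ± 0.18 SE, adjusted p = 6.3e-04) and RMI1 (-0.91 ± 0.25 SE, adjusted p = 0.0053) also differed. RMI2 was lower in both, and its difference of -0.62 ± 0.24 SE lay near the threshold (adjusted p = 0.058). It passed with RLE factors, edgeR's filterByExpr filter or library size alone (adjusted p = 0.0492, 0.027 and 0.015), and without library 10, 29 or 33. RAD51D was the gene with the more positive value in U2OS (1.48 ± 0.26 SE, adjusted p = 2.1e-05). RAD51C, which was called in U2OS with CPT and in no other of the 4 contrasts, differed by 0.44 ± 0.18 SE, which did not pass (adjusted p = 0.082).

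Against libraries 1 to 8, 12 of the 35 genes were more negative in U2OS with CPT and 1 was more positive, where 8.69% and 9% of 20539 genes were. FANCC differed by -1.19 ± 0.29 SE (adjusted p = 0.0014), RMI2 by -1.09 ± 0.29 SE (adjusted p = 0.0037) and XRCC2 by -1.15 ± 0.28 SE (adjusted p = 0.0017). RAD51C was the more positive gene (0.61 ± 0.20 SE, adjusted p = 0.021), and it no longer passed without library 27 or 31, or with library size alone as the scale (adjusted p = 0.09002, 0.05274 and 0.221). FANCG was lower in all 3 contrasts, and its differences between them did not pass (-0.22 ± 0.21 and -0.16 ± 0.22 SE, adjusted p = 0.516 and 0.683). BARD1, RMI2, FANCA, FANCC, FANCE, FANCG and FANCD2 were the 7 genes called lower both in U2OS with CPT, where they are 7 of 20, and in libraries 10, 12, 14 and 16, where they are 7 of 11. BRIP1, DNA2 and FANCG were called lower in U2OS with CPT, as 3 of 20, and in libraries 2, 4, 6 and 8, as 3 of 3. Of all genes tested in both contrasts, 5.22% were called lower in the first pair and 2.41% in the second. On the base of all genes called lower in U2OS with CPT, these were 31.1% and 14.7%. On the base of all genes called lower in the other contrast, they were 26.6% and 35.1%. The member counts include BARD1, FANCA and FANCD2 in the first pair and BRIP1, DNA2 and FANCG in the second, whose calls outside U2OS were lost in single-library omissions. The call for FANCA in U2OS with CPT was itself lost in 5 of 8 omissions and by DESeq2. EXO1, PALB2, WRN, FANCF, UBE2T, MUS81 and EME1 were called in none of the 4 contrasts.

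The cell lines themselves differed in many genes, both of the 35 and of all genes tested. In U2OS DMSO against HEK293T DMSO, 14 of the 35 genes were lower and 8 higher, where 30.1% and 32% of 19739 genes were. A high number of calls was thus not particular to the 35 genes. Of the 35 genes, 14 were wholly lower and 3 wholly higher, beside 32.3% and 23.2% of all genes. FANCF, the adaptor that joins FANCC and FANCE to the rest of the core complex, had 0.897, 0, 0.501 and 0.889 CPM in HEK293T DMSO and 0.543, 0.603, 0.639 and 0.685 CPM with the ATM inhibitor. These values rest on 0 to 3 counts per library and 8 counts in each set, at or under the floor. U2OS DMSO had 14.2, 9.63, 10.6 and 11.8 CPM from 159 counts (adjusted p = 8.3e-13). Libraries 1 to 8 had 8.16 to 13.2 CPM and 6.49 to 15 CPM in their 2 sets, and libraries 10 to 17 had 0.612 to 1.26 CPM and 0.505 to 1.11 CPM. Ordered by mean, the 4 sets with a U2OS-like profile lay above the other 4 with no overlap, while neighbours in the order overlapped within the upper and within the lower group of sets.

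XRCC2 had the opposite pattern, with 138, 177, 142 and 158 CPM in HEK293T DMSO and 20.1, 16.2, 23.1 and 18.5 CPM in U2OS DMSO (log2 fold change -2.75 ± 0.14 SE, adjusted p = 2.1e-18). Libraries 10 to 17 held 71.3 to 102 and 76.5 to 104 CPM, below all HEK293T libraries from 18 to 25 and above all U2OS-like ones. EXO1 (-1.34), UBE2T (-1.17) and FANCB (-1.13) were the next largest, all lower in U2OS, at adjusted p of 1.1e-10, 2.0e-07 and 6.9e-07. FANCC (0.88, adjusted p = 4.4e-05) and BRIP1 (0.57, adjusted p = 6.4e-05) were higher in U2OS. BRCA1 (-0.31, adjusted p = 0.02), FANCD2 (-0.91, adjusted p = 4.7e-09) and FANCI (-0.49, adjusted p = 3.6e-04) were lower, and BRCA2 did not pass (0.07 ± 0.11 SE). The call for BRCA1 was lost without library 25, 30 or 31. With library size alone as the scale, which moved the median of all genes by -0.22, 16 were lower and 4 higher.

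**Figure D4:**
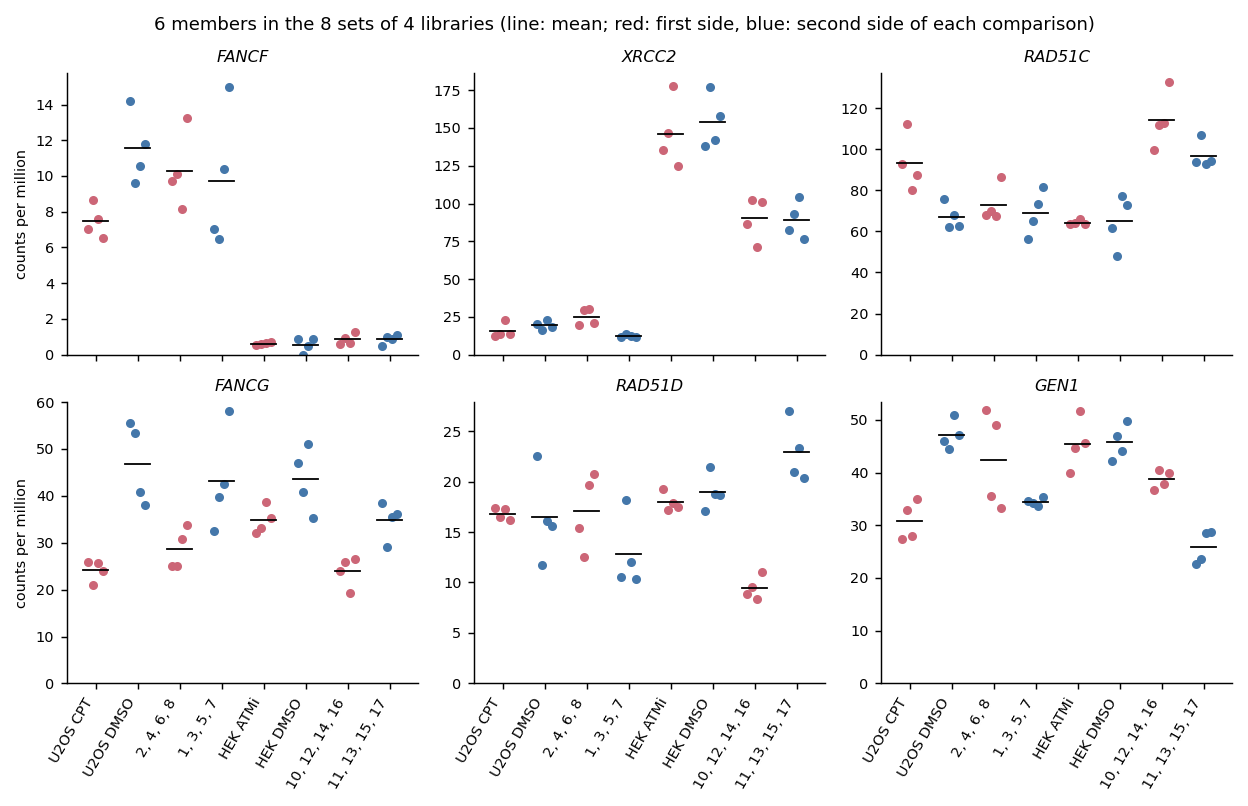
CPM (y axis, from 0) of 6 genes in the 8 sets of 4 libraries (x axis); points are libraries, lines are means, and red and blue are the first and second side of each comparison. FANCF stays below 1.3 CPM in the 4 sets with a HEK293T-like profile and XRCC2 below 31 CPM in the 4 U2OS-like sets, while RAD51C is higher with CPT in U2OS, RAD51D lower in libraries 10, 12, 14 and 16, and GEN1 lower in the one and higher in the other.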

How the data were processed

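Libraries were made with the Lexogen QuantSeq 3′ mRNA kit (FWD, with UMIs) and preprocessed by the authors with the QuantSeq FWD UMI pipeline on the BlueBee platform. The deposited table holds whole-number counts per Ensembl gene. The aligner, the genome build, the annotation and any use of strand are not given in the sources used here. The 5 summary rows (10.87% to 40.55% of a library's counts) and the 92 spike-in rows were left out. Gene counts per library ranged from 1232674 to 6362433, and no pair of replicates agreed within sampling noise. The study's filter (a count above 1 in no fewer than 2 libraries) was applied per comparison and left all 35 members. Each comparison was fitted alone with edgeR 4.0.16 (R 4.3.3): TMM factors, the quasi-likelihood test in place of the study's likelihood ratio test, and Benjamini-Hochberg adjustment over all genes, with calls at an adjusted p under 0.05. The SE is the log2 fold change divided by the root of F. CPM was computed over gene counts, and its floor of 3 counts covers counting error only. The members, gene lists, markers and tests were chosen with earlier results of these data known. Statistics were given in full for the 10 members of largest change in U2OS with CPT, for 5 in each other comparison (2 where none passed) and for BRCA1, BRCA2, FANCD2, FANCI and UBE2T, with RAD51C as the single higher gene. Outside the members, listed genes (NBN, MRE11, RPA1, ATM, PCNA, MKI67, CCNB1, CDKN1A, XRCC6) and the 3 largest recombination changes were named by rule, and TOP3A and marker genes were chosen after their values were seen. Another listed gene is not reported here. Other settings tried were the likelihood ratio test, DESeq2 1.42.0, RLE factors, 2 other filters, 1 fit over 32 libraries, sides by label, each library left out and, added after seeing the data, library size alone. The fitting script was tested on simulated counts. Promoters came from RefSeq tables.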

Additional observations from a re-analysis of the deposited data

Results flagged for a closer look

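A library was called far from the other 3 of its set where the gap to its nearest neighbour took more of the set's range in CPM than Dixon's 95% critical value for 4 values. Of 280 sets of 4 values, 16 did, and chance gives about 1 in 20. In U2OS CPT, BRCA2 in library 26 had 79.7 CPM, below the 101 to 105 of the others (gap 0.844 of the range), XRCC2 in library 28 had 22.9 CPM, above the 12.7 to 14 of the others (gap 0.872), and FANCI in library 26 had 63.6 CPM, below the 72.7 to 73.5 of the others (gap 0.92). In U2OS DMSO, FANCM in library 30 had 69.5 CPM, above the 59.2 to 60.3 of the others (gap 0.889). In the ATM inhibitor set, BRIP1 in library 20 had 68.3 CPM, below the 75.4 to 76.5 of the others (gap 0.856), RAD52 in library 18 had 11.9 CPM, above the 6.71 to 7.23 of the others (gap 0.8996), and FANCE in library 20 had 27.5 CPM, below the 32.2 to 32.8 of the others (gap 0.881). In HEK293T DMSO, BARD1 in library 23 had 52.3 CPM, below the 58.4 to 59.4 of the others (gap 0.858), RBBP8 in library 22 had 134 CPM, below the 163 to 168 of the others (gap 0.838), and FANCE in library 23 had 44.3 CPM, above the 37.8 to 38.9 of the others (gap 0.836). Among libraries 11, 13, 15 and 17, RAD51C in library 13 had 107 CPM, above the 92.7 to 94.2 of the others (gap 0.892), RAD54L in library 13 had 7.62 CPM, below the 17.4 to 18.9 of the others (gap 0.863), and BLM in library 15 had 101 CPM, above the 83.9 to 86.7 of the others (gap 0.834). Among libraries 2, 4, 6 and 8, PALB2 in library 8 had 21.1 CPM, below the 27.6 to 27.9 of the others (gap 0.947), and RAD51C in library 8 had 86.6 CPM, above the 67.7 to 69.8 of the others (gap 0.89). Among libraries 1, 3, 5 and 7, BRCA2 in library 7 had 161 CPM, above the 122 to 127 of the others (gap 0.868). Without library 26 the call for BRCA2 in U2OS with CPT was lost (adjusted p = 0.08303). The cause of these gaps was not tested.

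The log2 fold change of U2OS CPT against DMSO differed from that of libraries 10, 12, 14 and 16 against 11, 13, 15 and 17 in 11 genes, by the interaction term of edgeR's quasi-likelihood test at an adjusted p under 0.05, where negative values are lower in U2OS. They were BRCA1 (-0.50), BRIP1 (-0.47), RAD51D (1.48), RAD51AP1 (-0.58), RAD54B (-0.95), BLM (-0.83), RMI1 (-0.91), FANCB (-1.04), FANCL (-0.51), FANCM (-1.04) and GEN1 (-1.01). From libraries 2, 4, 6 and 8 against 1, 3, 5 and 7 it differed in 13 genes. They were BRCA1 (-0.63), BARD1 (-0.65), RBBP8 (-0.64), RAD51C (0.61), XRCC2 (-1.15), RAD54B (-1.19), BLM (-0.71), RMI1 (-0.94), RMI2 (-1.09), FANCC (-1.19), FANCM (-0.75), FANCD2 (-0.65) and GEN1 (-0.69). BRCA1, RAD54B, BLM, RMI1, FANCM and GEN1 were in both groups. When single libraries were left out, BRCA1 lost its difference from libraries 10 to 17 in 11 of 16 omissions and BRIP1 in 11 of 16, and BRIP1 also by the likelihood ratio test. FANCL, RAD54B, BARD1, RBBP8, RAD51C and GEN1 lost a difference in at least 1 omission too, as BRCA1 did from libraries 1 to 8. Cell line, agent, dose and label differ between these contrasts, in part by how the labels are read, and cannot be told apart. By the rule's reading, libraries 10, 12, 14 and 16 had the same agent. The study's methods list a lower CPT dose for HEK293T than for U2OS.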

How the results depend on the processing

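No paired analysis was run. The libraries carry running numbers that no 2 groups share, and the labels do not tie neighbouring numbers to a repeat. The study describes independent repeats, so neighbouring numbers may share one. A fit paired by neighbouring number was not tried, and any such pairing is left out of the tests. The counts of members lower and higher (20 and 1 in U2OS with CPT, 0 and 0 with the ATM inhibitor, 11 and 3 in libraries 10 to 17, 3 and 2 in libraries 1 to 8, 14 and 8 between lines) stayed within 1.5 times under the likelihood ratio test, DESeq2, RLE factors, both filters and the fit over 32 libraries. An absolute log2 fold change over 1 left 2 and 0, 0 and 0, 1 and 0, 0 and 1, and 6 and 1 in that order. With library size alone, added after seeing the data, libraries 1 to 8 had 1 lower member and the lines 4 higher ones. Leaving out 1 library gave 18 to 20 lower and 1 to 2 higher members in U2OS with CPT (2 higher without 27 or 33, with RAD52, or without 30, with UBE2T). In libraries 10 to 17 it gave 9 to 11 and 1 to 3, in libraries 1 to 8 0 to 3 and 1 to 2 (1 higher without 6 or 7), and between lines 13 to 15 and 6 to 8. With sides by label, 1 and 0 members were called for libraries 10 to 17 and 2 and 1 for libraries 1 to 8. In the latter fit XRCC2 turned to -1.51 (adjusted p = 0.15). Its DMSO side held all 8 libraries labelled HEK293T DMSO, with library 17 and libraries 22 to 25 among them, and library 1 was left out. Of the differences from U2OS, those with libraries 10 to 17 were 10 lower and 1 higher, with 2 higher by DESeq2 and 6 to 10 and 1 to 3 without 1 library (6 lower without 27, 3 higher without 30, and 2 higher without 26, 28, 14 or 16). Those with libraries 1 to 8 were 12 and 1, with 0 higher on library size alone and 10 to 12 and 0 to 1 without 1 library (0 higher without 27 or 31). For libraries 10 to 17, library size alone added BARD1, RBBP8, DNA2, BRCA2 and RMI2 to the lower differences. A fit without a filter took BRIP1, RAD54B and FANCL from them. With all 8 libraries labelled HEK293T DMSO as control, 0 members passed for the ATM inhibitor. DESeq2 lost 6 single calls and gained 1. Where not stated, the cause was not tested. FANCF in HEK293T, at up to 3 counts a library, and XRCC3 in U2OS, at 3 to 21 counts, were limited by depth.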
